A study of Mus musculus with 20 samples.

Results

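The chaperonins are the barrel-shaped folding machines of the cytosol and of the mitochondrial matrix, and their transcripts were followed in mouse CD8 T cells before and after stimulation through the T cell receptor. The members were taken by gene symbol from the array annotation, with no cut on their values. Their list was chosen with earlier results of these data known, so shares of all genes beside their counts are a description. The members were 7 subunits of the cytosolic chaperonin (Tcp1, Cct2, Cct3, Cct4, Cct5, Cct7 and Cct8) and the 2 genes of the mitochondrial chaperonin (Hspd1 and Hspe1). All 9 were found, on 14 probe sets, among 8251 genes with a probe set of a single symbol. All 9 were also among the 6279 genes bright enough to be tested. The study measured total RNA of OT-I T cells on 20 one-colour Affymetrix arrays. OT-I mice carry a transgenic receptor for an ovalbumin peptide held by H-2Kb, and these were of the C57Bl6 strain and 6 to 8 weeks old. CD44-low CD8 T cells were enriched from lymph nodes by removal of other cells and were either taken at once or cultured with latex microspheres that bore this peptide complex and the costimulatory protein B7-1 (Ag-B7). Every culture also held IL-2, and no group was cultured without Ag-B7, so a difference from naive cells joins Ag-B7, IL-2 and time in culture.

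With IL-12 added to Ag-B7 there was 1 array at 24 h, 3 at 48 h and 1 at 72 h. With type I interferon (IFNa/b) there were as many, 1 at 24 h, 3 at 48 h and 1 at 72 h. Trichostatin A (TSA), an inhibitor of histone deacetylases, was added to Ag-B7 for 1 array at 72 h. Ag-B7 without any of these had 1 array at 24 h, 4 at 48 h and 1 at 72 h, and naive cells had 3 arrays. The labels call the replicates biological and do not say whether they came from separate mice. The design sets IL-12 and IFNa/b, the cytokines that the study adds, against Ag-B7 by itself, and all stimulated cells against naive ones.

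The cytosolic chaperonin, called CCT or TRiC, is built of different but related subunits arranged in stacked rings. It takes in newly made proteins such as actin, the tubulins and several regulators of the cell cycle, and releases them folded, driven by ATP. In the mitochondrial matrix, Hspd1 (HSP60) forms the folding chamber and Hspe1 (HSP10) is the lid that closes it, and together they fold proteins imported from the cytosol. T cells that respond to antigen enlarge, divide and make much new protein, and both chaperonins work on proteins that have just been made.

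Signals are on the scale of the deposited MAS5 intensities, which had been brought to a common mean per array, so each value is relative to the rest of that array's RNA. In a bulk sample, fewer cells of a type and less RNA per cell cannot be told apart. Differences are in log2(signal + 46.4), given as difference ± standard error. They were tested with limma over all 6279 genes at once, on the 13 arrays of the 4 replicated groups, with p-values adjusted by Benjamini-Hochberg. A gene is said to rise or fall where the adjusted p was below 0.05. Among the 20 arrays, naive replicates 2 and 3 stood apart by a ratio of 3' to 5' actin signal of 2.06 and 1.61. That ratio was 1.13 on naive replicate 1 and 1.00 to 1.15 on the stimulated arrays. Of the 9 members, 8 had their lowest naive signal on naive replicate 2, so values without that array are given where they matter. Of 12 marker genes of CD8 T cells, 11 were on the array, and their lowest signal was 588. Their summed signal was 78104 to 139668 on the naive arrays and 85370 to 107960 with Ag-B7 at 48 h. With 48 h of Ag-B7 over naive cells 2 of these 11 rose and 3 fell, beside 26.1% and 35.6% of all genes.

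After 48 h of Ag-B7 alone, 7 of the 9 members were higher than in naive cells and none was lower. These were 5 of the 7 cytosolic subunits, with Cct8 and Cct3 showing the largest differences, and both mitochondrial genes, each at about the same difference as the other. The 2 exceptions, Tcp1 and Cct2, did not pass the test. The background was broad, since 26.1% of all genes tested were called higher in this comparison and 35.6% were called lower. The arrays of the 7 did not overlap between the groups, as was so for 24.4% of all genes in that direction. The median difference of the members was 1.17, against -0.23 over all genes.

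Cct8, the theta subunit, had signals of 8434, 8090.2, 7199 and 9200.2 on the 4 arrays of Ag-B7 at 48 h, against 2823, 1468 and 2210.3 on the 3 naive arrays. Every stimulated array was far above every naive one. The log2 difference from naive cells was 1.95 ± 0.20, a 3.85-fold rise (n = 4 and 3, limma adjusted p = 9.95e-07), and 94.3% of all genes tested had a smaller difference. Cct3, the gamma subunit, gave 10718, 10456, 9304 and 13259 with Ag-B7, against 4927, 2221 and 4335 in naive cells. Its groups did not overlap, and the difference was 1.57 ± 0.22 (2.97-fold, limma adjusted p = 2.32e-05). Cct4, the delta subunit, gave 19087, 19269, 15266 and 18527 with Ag-B7, against 8085, 4665 and 7472 in naive cells, a difference of 1.45 ± 0.19 (2.73-fold, limma adjusted p = 1.00e-05). Naive replicate 2 was the lowest array for each of these 3 subunits.

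Cct7, the eta subunit, had signals of 13749, 15166, 12964 and 15769.6 with Ag-B7 at 48 h, against 7742, 5149.7 and 6105 in naive cells, and rose 2.29-fold (1.20 ± 0.18, limma adjusted p = 3.91e-05). Cct5, the epsilon subunit, had 20725, 19617, 16964 and 20799 with Ag-B7, against 11569, 5432 and 10256 in naive cells, and rose 2.25-fold (1.17 ± 0.21, limma adjusted p = 0.000205). For both subunits the lowest stimulated array lay above the highest naive array. The spread of Cct5 in naive cells came mostly from replicate 2, and without that array its difference was 0.83. The same 7 members were called without naive replicate 2, and their differences then lay between 0.83 for Cct5 and 1.70 for Cct8.

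Tcp1, the alpha subunit after which the complex was first named, had signals of 1112, 1636, 1228 and 1343 with Ag-B7 at 48 h, against 1237, 819 and 1145 in naive cells. Its groups overlapped, and the difference of 0.31 ± 0.22 did not pass the test (limma adjusted p = 0.229). Cct2, the beta subunit, had 1182, 1355, 1848 and 1235 with Ag-B7, against 1203, 1343 and 1767 in naive cells, with a difference of -0.04 ± 0.22 (limma adjusted p = 0.899). The 95% interval of Cct2 ran from -0.51 to 0.43 and lay below the intervals of all 7 members that rose, the lowest bound of which was 0.63, for Hspd1. The interval of Tcp1 ran from -0.16 to 0.78 and shared values with those of Hspd1, Hspe1 and Cct5, so its distance from these is not resolved. Differences between members were not tested. The scaling of the arrays bears on these 2 subunits. With arrays brought to a common median in place of a common mean, the difference was 1.01 for Tcp1 and 0.67 for Cct2, and both passed the test (limma adjusted p = 0.00361 and 0.0155). That scaling also moved the median of all genes to 0.43, and relative to it Cct2 stood at 0.24, close to the 0.20 it had relative to the median of all genes as deposited. With arrays scaled to spiked-in control transcripts the median of all genes was 1.304 and all 9 members were called higher. The mean log2 signal of these controls was 1.78 higher on the naive arrays than with Ag-B7 at 48 h. This scaling by itself therefore raises the difference of every gene from naive cells, and the cause of that gap was not tested. With quantile normalization the median of all genes was 0.04 and 7 members were called higher. Over all genes, 1640 were called higher and 2236 lower as deposited, against 2584 and 944 with a common median, 3781 and 95 with spike-in scaling, and 1941 and 1635 with quantile normalization. Relative to the median of all genes, the median of the members was 1.40 as deposited, 1.47 with a common median, 1.63 with spike-in scaling and 0.90 with quantile normalization.

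**Figure D1:**
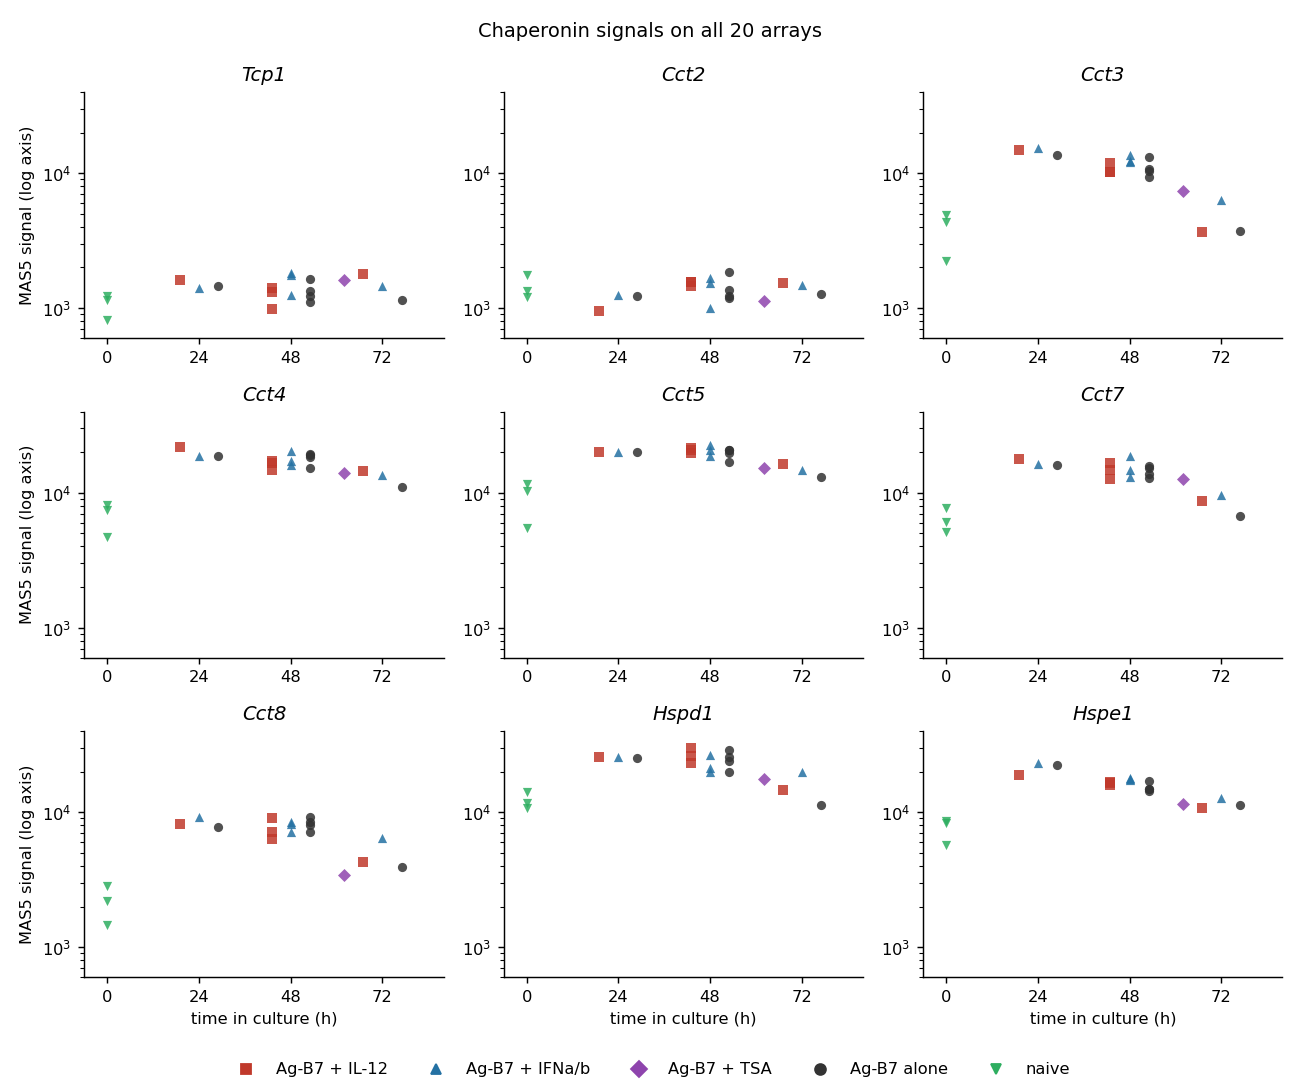
Signal of each of the 9 chaperonin genes on all 20 arrays, against the time in culture, on a log axis. Each point is 1 array, and treatments at one time are set apart sideways. Cct3, Cct4, Cct5, Cct7, Cct8, Hspd1 and Hspe1 have their 24 h and 48 h arrays above all naive arrays, while Tcp1 and Cct2 stay between 819 and 1848 on every array.

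Hspd1, the chamber of the mitochondrial chaperonin, had signals of 29147, 19993, 23999 and 25579 with Ag-B7 at 48 h, against 14244, 10810.4 and 11772 in naive cells. It rose 2.00-fold (1.00 ± 0.18, limma adjusted p = 0.000159), and the groups did not overlap. Hspe1, its lid, had 14882, 14879.9, 14404 and 16934 with Ag-B7, against 8585, 5691 and 8356 in naive cells, and rose 2.05-fold (1.03 ± 0.16, limma adjusted p = 5.36e-05). The differences of the 2 partners lay within 1 standard error of each other. Without naive replicate 2 they were 0.91 for Hspd1 and 0.84 for Hspe1.

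The pair is also joined in the genome. On the RefSeq annotation of GRCm38.p6, Hspd1 lies on the minus strand at chr1:55077833-55088243 and Hspe1 on the plus strand at chr1:55088148-55091317. They run in opposite directions from starts 95 bases apart, and their first 96 bases overlap. The windows from 250 bases before to 50 bases after each start were searched on both strands for 4 short motifs, and 8 of the 9 members have such a window. A heat shock element, the binding motif of heat shock transcription factors, was searched for as 3 inverted repeats (TTC, any 2 bases, GAA, any 2 bases, TTC). It was found in 0.603% of 32851 mouse promoter windows and, among the members, in those of Hspe1 and Hspd1 alone, where it is a single stretch of 18 bases at chr1:55088059-55088076. That stretch lies in the window of Hspe1 and in that of a second, downstream start listed for Hspd1 (chr1:55087883-55088182), and the 2 windows share 285 bases. The window of the upstream start of Hspd1 shares 4 bases with that of Hspe1 and lacks the element. It is shown first, in the window of Hspe1 (chr1:55087898-55088197, plus strand), with the element in capitals. The next sequence is the window of the upstream start of Hspd1 (chr1:55088194-55088493, minus strand), whose capitals mark an E-box (CACGTG), a motif bound by MYC and related factors that 7.15% of windows hold.
Hspe1: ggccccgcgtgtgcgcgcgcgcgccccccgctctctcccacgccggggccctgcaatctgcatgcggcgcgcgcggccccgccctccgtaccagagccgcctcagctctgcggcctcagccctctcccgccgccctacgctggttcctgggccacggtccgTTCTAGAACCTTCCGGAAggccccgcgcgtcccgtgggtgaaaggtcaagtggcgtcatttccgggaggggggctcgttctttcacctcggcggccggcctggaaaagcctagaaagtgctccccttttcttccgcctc
Hspd1: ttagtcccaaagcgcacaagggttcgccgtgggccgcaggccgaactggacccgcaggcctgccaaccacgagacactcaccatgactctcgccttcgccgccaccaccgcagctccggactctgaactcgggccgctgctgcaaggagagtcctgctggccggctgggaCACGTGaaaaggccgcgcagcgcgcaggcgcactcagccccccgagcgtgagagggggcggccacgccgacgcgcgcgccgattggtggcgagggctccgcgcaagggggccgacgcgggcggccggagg
The next 2 windows belong to the cytosolic subunits with the largest differences. The window of Cct3 (chr3:88296885-88297184, plus strand) holds 2 CCAAT boxes (CCAAT, capitals, read here on the other strand as ATTGG), a motif that 37.4% of windows hold. That of Cct8 (chr16:87495820-87496119, minus strand) holds the core of an ETS factor site (CCGGAAG, capitals), found in 8.86% of windows.
Cct3: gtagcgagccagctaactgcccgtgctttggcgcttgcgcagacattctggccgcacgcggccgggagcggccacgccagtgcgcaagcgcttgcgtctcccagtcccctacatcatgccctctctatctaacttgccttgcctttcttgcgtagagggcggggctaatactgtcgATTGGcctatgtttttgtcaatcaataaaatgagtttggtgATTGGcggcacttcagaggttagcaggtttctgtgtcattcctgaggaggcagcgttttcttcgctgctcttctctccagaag
Cct8: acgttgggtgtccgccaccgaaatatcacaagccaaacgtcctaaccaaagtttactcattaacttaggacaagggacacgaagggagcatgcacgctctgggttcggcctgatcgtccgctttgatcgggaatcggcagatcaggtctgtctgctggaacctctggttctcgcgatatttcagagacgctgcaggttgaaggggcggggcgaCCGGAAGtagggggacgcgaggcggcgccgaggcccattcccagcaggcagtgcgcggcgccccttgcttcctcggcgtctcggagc
The CCAAT box was present in windows of 4 of the 8 members, Cct3, Cct7, Tcp1 and Hspd1, a share near the 41.1% of all genes with a window. The ETS core was in windows of 5, Cct2, Cct8, Tcp1, Hspd1 and Hspe1, beside 9.93% of all genes. The ETS matches of Hspd1 and Hspe1 lie on the same bases. Whether these motifs bear on the differences of the members was not tested. In the pair, the ETS core overlaps the heat shock element. These matches describe the letters of the windows, and binding was not measured.

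The genes of the cytosolic subunits lie apart, each on a chromosome of its own. RefSeq places Tcp1 at chr17:12916329-12925067, Cct2 at chr10:117050997-117063852, Cct3 at chr3:88297135-88321766, Cct4 at chr11:22990593-23003336, Cct5 at chr15:31590800-31601846, Cct7 at chr6:85451505-85468477 and Cct8 at chr16:87483325-87495869.

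Several members had more than 1 probe set, and these did not all run together. The value of a gene above is that of its brightest probe set. For Cct3, a second probe set (98153_at) gave 7257, 6938, 7391 and 9665 with Ag-B7 at 48 h, against 3915, 2163 and 3632 in naive cells, a difference of 1.29 (limma adjusted p = 6.52e-05), while another, dimmer one (161238_f_at) gave -0.52 and did not pass (limma adjusted p = 0.0750). The second probe set of Cct5 (161514_at) rose, by 1.71 on the log2 scale (limma adjusted p = 0.00105). The second probe set of Hspd1 (161140_r_at) went the other way, with 329, 357, 599 and 227 with Ag-B7 at 48 h, against 711, 2061 and 659.8 in naive cells, a difference of -1.36 (limma adjusted p = 0.0194). Its highest signal was again on naive replicate 2. With the mean of all probe sets standing for a gene, the difference of Hspd1 was -0.18 and it was no longer called (limma adjusted p = 0.562), so the rise of Hspd1 rests on its bright probe set. The second probe set of Tcp1 was too dim to be tested.

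With IL-12 or IFNa/b present, the cells differed from naive cells in much the same members. These 2 comparisons use the same naive arrays as that of Ag-B7 alone and are not independent of it. With IL-12, 7 of the 9 members were higher than naive and none was lower, beside 24.8% of all genes called higher. With IFNa/b, 8 were higher and none was lower, beside 25.3% of all genes called higher. Cct8 had 9097, 7140.4 and 6337 with IL-12 (1.81 ± 0.22 over naive, limma adjusted p = 5.02e-06) and 8206, 7184 and 8414 with IFNa/b (1.90 ± 0.22, limma adjusted p = 3.16e-06). Cct3 had 11946, 10175 and 10186 with IL-12 (1.56 ± 0.24) and 13593, 12406 and 12034 with IFNa/b (1.79 ± 0.24). All of these arrays lay above every naive array, as did those of 7 of the 9 members with IL-12, beside 25.6% of all genes, and of 8 with IFNa/b, beside 26.9%.

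The member added with IFNa/b was Tcp1. Its signals were 1248, 1747 and 1827 with IFNa/b at 48 h, against 1237, 819 and 1145 in naive cells, and the difference of 0.57 ± 0.24 was just past the threshold (limma adjusted p = 0.0472). The lowest IFNa/b array lay just above the highest naive array. The call was lost without naive replicate 2, where the difference was 0.40 (limma adjusted p = 0.158), as well as without naive replicate 3 and without IFNa/b replicate 2 or 3. With the replicate number as a block it was also lost (limma adjusted p = 0.0508). With IL-12, Tcp1 had 988, 1322 and 1415 and a difference from naive of 0.21 ± 0.24, which did not pass (limma adjusted p = 0.442). Cct2 had 1464, 1558 and 1572 with IL-12 and 995, 1676 and 1528 with IFNa/b, and its differences from naive were 0.11 ± 0.24 and -0.05 ± 0.24, neither called.

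Hspd1 had 30033, 23180.3 and 26074 with IL-12 and 26478, 20035 and 21162 with IFNa/b, and differed from naive by 1.11 ± 0.19 with IL-12 and by 0.87 ± 0.19 with IFNa/b. Hspe1, whose 48 h values were 16564, 16862 and 16030.1 with IL-12 and 17379, 17935 and 17749 with IFNa/b, differed from naive by 1.15 ± 0.17 with IL-12 and by 1.25 ± 0.17 with IFNa/b. The lid thus stood a little higher than the chamber over naive cells with IFNa/b, a gap that was not tested. Cct4 had 17143, 16709 and 14784 with IL-12 and 20475, 15927 and 17066 with IFNa/b. Cct5 had 20721, 21377 and 19657 with IL-12 and 22609, 18564 and 20702 with IFNa/b. Cct7 had 16623, 14621 and 12699 with IL-12 and 18645, 13025 and 14646 with IFNa/b. These 3 subunits had differences from naive between 1.22 and 1.43 in these 2 comparisons, each called.

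**Figure D2:**
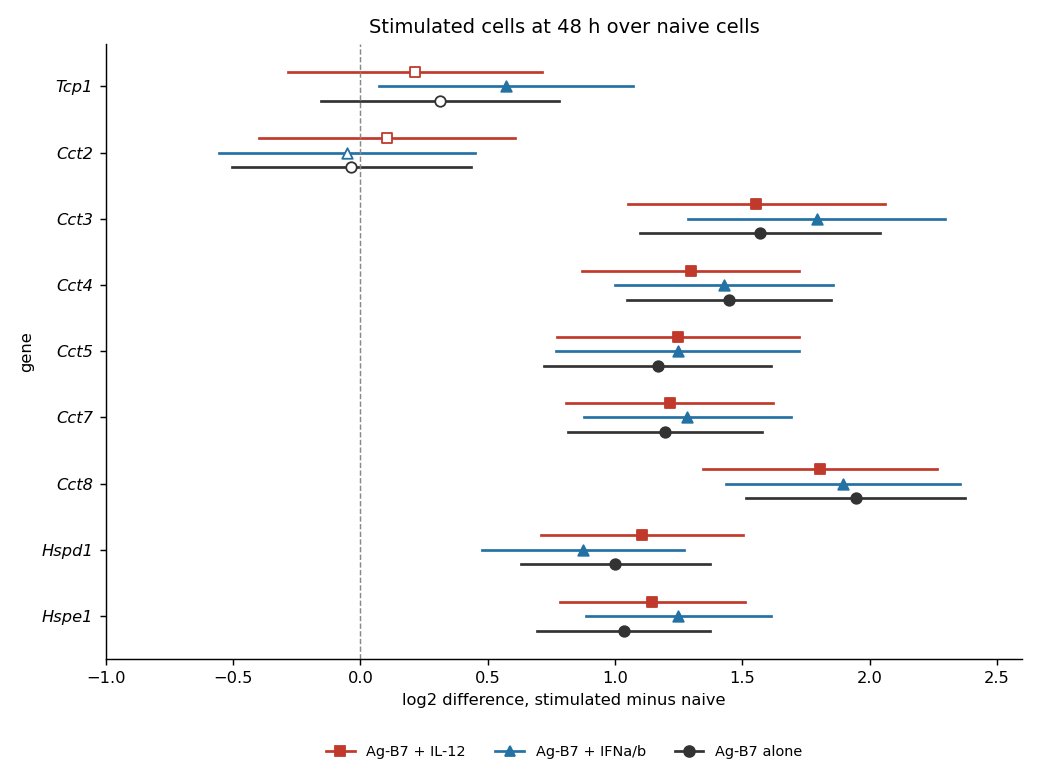
Log2 difference of each chaperonin gene between stimulated cells at 48 h and naive cells, with its 95% interval from limma. Filled symbols passed an adjusted p below 0.05, and the 3 comparisons share the 3 naive arrays. Cct8 lies furthest to the right with Ag-B7 alone, at 1.95, and the intervals of Cct2 include 0 in each comparison.

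Between the added cytokines at 48 h, no member passed the test. With IL-12 over Ag-B7 alone, 0 of the 9 members were called by limma, beside 0.621% of all genes, and 0 members had an unadjusted p below 0.05, beside 5.8% of all genes. The member differences ran from -0.15 for Cct4 to 0.14 for Cct2, and their 95% intervals together spanned -0.57 to 0.61. With IFNa/b over Ag-B7 alone, 0 of 9 were called, beside 0.43% of all genes, and 0 had an unadjusted p below 0.05, beside 4.55% of all genes. These differences ran from -0.13 for Hspd1 to 0.26 for Tcp1, with intervals that spanned -0.50 to 0.73. With IL-12 over IFNa/b, 0 of 9 were called, beside 0.94% of all genes, and 0 had an unadjusted p below 0.05, beside 4.83% of all genes. Those differences ran from -0.36 for Tcp1 to 0.23 for Hspd1, within -0.86 to 0.66. Differences of these sizes in either direction cannot be told from 0 with 3 or 4 arrays a group, so the intervals, and not equality, are what the data give.

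A few members kept their groups apart without passing the test. Hspe1 had 17379, 17935 and 17749 with IFNa/b, against 14882, 14879.9, 14404 and 16934 with Ag-B7 alone, so every IFNa/b array was above every Ag-B7 array (0.21 ± 0.16, limma adjusted p = 0.9999), as was the case for 3.28% of all genes. Hspe1 with IL-12 (16564, 16862 and 16030.1) was also below all 3 IFNa/b arrays (-0.10 ± 0.17). Cct3 had 11946, 10175 and 10186 with IL-12, against 13593, 12406 and 12034 with IFNa/b, again without overlap (-0.24 ± 0.24), as were 6.59% of all genes in that direction. The groups of all other members overlapped in these comparisons.

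**Figure D3:**
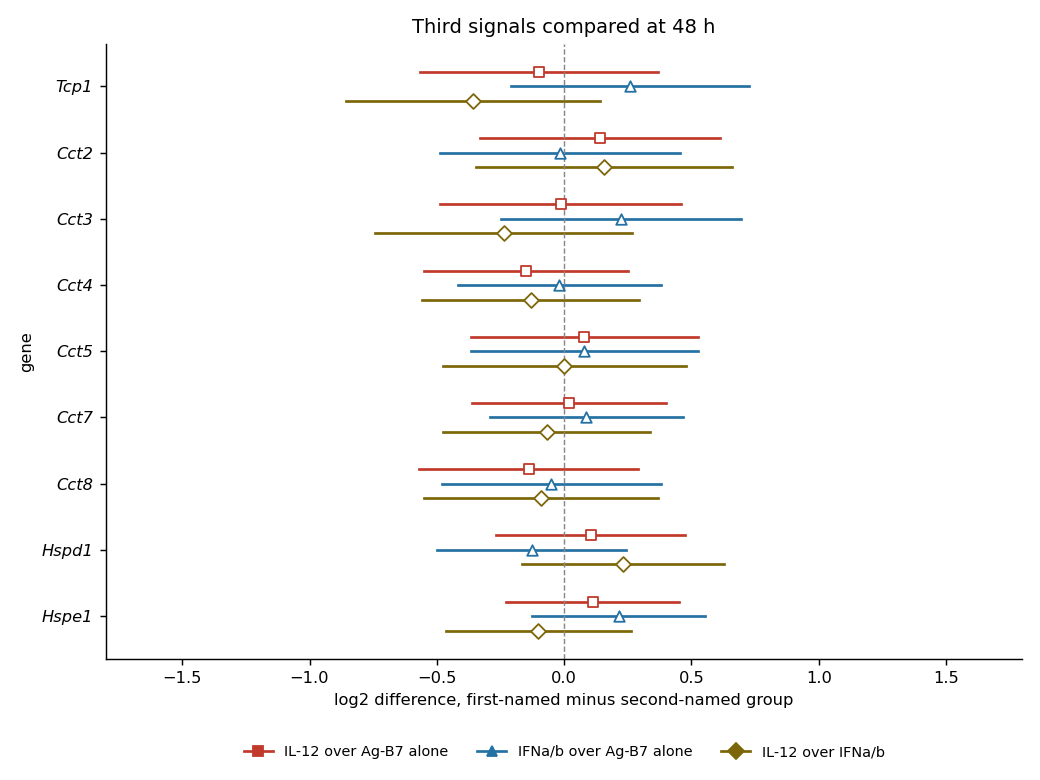
Log2 difference of each chaperonin gene between the treatments at 48 h, with its 95% interval from limma. The symbols are open because none passed an adjusted p below 0.05, and every interval includes 0. The lowest estimate is that of Tcp1 with IL-12 over IFNa/b, at -0.36.

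The rise was already present on the arrays of 24 h, of which there was 1 per treatment, so no test was made and differences lack a replicate check. At 24 h, 7 of the 9 members were at least 2-fold above the naive mean with IL-12, with IFNa/b and with Ag-B7 alone, beside 19.0%, 19.2% and 19.3% of all genes. They were the same 7 as at 48 h. Cct3 gave 14752 with IL-12, 15394 with IFNa/b and 13749 with Ag-B7 alone, differences from the naive mean of 2.01, 2.07 and 1.91. Cct8 gave 8192 with IL-12, 9224 with IFNa/b and 7842 with Ag-B7 alone, differences of 1.94, 2.11 and 1.88. In each treatment 8 of the 9 members, all but Cct2, lay above every naive array at 24 h, beside 32.4% of all genes with IL-12, 32.6% with IFNa/b and 32.8% with Ag-B7 alone. Cct4 had 22001 with IL-12, 18619 with IFNa/b and 18849 with Ag-B7 alone, and Cct7 had 17734, 16402 and 15964 with the same treatments. Cct5 was nearly level across the treatments, at 20054 with IL-12, 20057 with IFNa/b and 20151 with Ag-B7 alone. Tcp1 gave 1619.6 with IL-12, 1411 with IFNa/b and 1455 with Ag-B7 alone, above all naive arrays but by less than 2-fold. Cct2 gave 944 with IL-12, 1240.3 with IFNa/b and 1236 with Ag-B7 alone, of which the IL-12 array was its lowest of all 20.

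Both mitochondrial genes were high at 24 h. Hspd1 had 25896 with IL-12, 25578 with IFNa/b and 25359 with Ag-B7 alone, all within the range of its 48 h arrays. Hspe1 had 18818 with IL-12, 23061 with IFNa/b and 22372 with Ag-B7 alone, which were its 3 highest arrays of all 20. The lid was therefore lower at 48 h than at 24 h in each treatment, by differences of -0.19 with IL-12, -0.38 with IFNa/b and -0.55 with Ag-B7 alone, with the 24 h array above all 48 h arrays. Cct3 behaved alike, with differences of -0.46, -0.28 and -0.34 for the same treatments. Members below their 24 h array on every 48 h array were 5 of 9 with IL-12, beside 27.8% of all genes, 3 with IFNa/b, beside 23.7%, and 3 with Ag-B7 alone, beside 20.7%. No member was 2-fold apart between 24 h and 48 h, beside 2.42% of all genes at least 2-fold lower at 48 h with IL-12, 0.971% with IFNa/b and 1.54% with Ag-B7 alone.

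From 48 h to 72 h most members went down, in each treatment on 1 array at 72 h. With IL-12, 7 of the 9 members at 72 h lay below all 48 h arrays of that treatment, beside 26.6% of all genes. With IFNa/b it was also 7, beside 27.0%, and with Ag-B7 alone 7, beside 24.9%. The median member difference was -0.60 with IL-12, -0.38 with IFNa/b and -0.70 with Ag-B7 alone, against 0.16, 0.10 and 0.17 over all genes. Tcp1 and Cct2 were the members not below the 48 h range. Those at least 2-fold lower than at 48 h were 1 with IL-12 (6.39% of all genes), 1 with IFNa/b (4.2%) and 4 with Ag-B7 alone (6.59%).

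Cct3 was the member at least 2-fold lower in all 3 treatments. Its 72 h signals were 3659.6 with IL-12, 6288 with IFNa/b and 3739 with Ag-B7 alone, differences from 48 h of -1.54, -1.004 and -1.52. The values with IL-12 and with Ag-B7 alone lay within the naive range. Hspd1 with Ag-B7 alone was 11319.8 at 72 h, also within the naive range and -1.11 from its 48 h mean, whereas with IFNa/b it was 19856 and -0.17 from it. Cct7 was 8614 with IL-12, 9690 with IFNa/b and 6703 with Ag-B7 alone, of which the last lay within the naive range, -1.09 from 48 h. Cct8 was 4289 with IL-12, 6394 with IFNa/b and 3927 with Ag-B7 alone, the last -1.05 from 48 h. Cct4 was 14596 with IL-12, 13634 with IFNa/b and 11025 with Ag-B7 alone. Cct4, Cct5, Cct8 and Hspe1 were above all naive arrays at 72 h in each of these 3 treatments. In all, 7 of the 9 members were so with IL-12, beside 31.3% of all genes, 8 with IFNa/b, beside 33.6%, and 4 with Ag-B7 alone, a share near the 32.0% of all genes there. Against the naive mean, the members at least 2-fold higher at 72 h were Cct4 and Cct8 with IL-12 (14.5% of all genes), Cct4 and Cct8 with IFNa/b (16.4%), Cct3, Cct4 and Cct7 with TSA (15.8%), and 0 of 9 with Ag-B7 alone (13.3%).

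At 72 h the single IFNa/b array was above the single Ag-B7 array for all 9 members, by 0.17 for Cct5 to 0.81 for Hspd1. The IL-12 array was above it for 7 of the 9, by up to 0.61, for Tcp1. The median member difference was 0.33 with IFNa/b and 0.32 with IL-12. Over all genes the median was -0.04 and -0.02, so in both more genes lay below the Ag-B7 array than above it. No member reached 2-fold in either, beside 3.93% of all genes at least 2-fold higher with IFNa/b and 5.22% with IL-12. The array with TSA had 7393 for Cct3 (0.97 over Ag-B7 alone), 12672 for Cct7 (0.91), 17659 for Hspd1 (0.64) and 3453 for Cct8 (-0.18). None of the 9 members was 2-fold apart between TSA and Ag-B7 alone, beside 7.09% of all genes at least 2-fold higher and 8.97% at least 2-fold lower. These counts depend on how the arrays were scaled, and with 1 array a group the differences describe those arrays.

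Markers of other cells moved with these comparisons. Of 34 markers of B cells, myeloid cells, natural killer cells, CD4 T cells, erythroid cells and platelets, and stroma on the array, 21 were bright enough to be tested. With 48 h of Ag-B7 over naive cells 14 of them fell, beside 35.6% of all genes, and 1 rose, beside 26.1%. Their summed signal was 11110.0 to 16329 on the arrays of Ag-B7 at 48 h, against 36998 to 50195 on the naive arrays. At 48 h it was 11502 to 12885 with IL-12 and 10298 to 12909 with IFNa/b. At 24 h the sum was 10145 to 10349. At 72 h it was 29558 with IL-12, 26400 with IFNa/b, 19982 with TSA and 45190 with Ag-B7 alone. The sum was thus high in naive cells and at 72 h, where most chaperonins were below their 24 h and 48 h signals. These heights came from different markers. Those of natural killer cells summed to 5840 to 7372 on naive arrays and reached 27872 at 72 h. Those of myeloid cells summed to 15006 to 18618 on naive arrays and to at most 10463 on the 24 h and 72 h arrays. Klrd1, a natural killer cell receptor that activated CD8 T cells also express, is among these markers. Their part in the chaperonin differences was not tested.

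The partners of the chaperonins were read from lists of genes by role. Of 8 tested genes for further subunits, prefoldin (which hands clients to CCT) and phosducin-like cofactors, 4 rose and 2 fell with 48 h of Ag-B7 over naive cells, with a median difference of 0.71. Of all genes, 26.1% were called higher in that comparison and 35.6% were called lower. Cct6a, the zeta subunit and thus a part of the same ring, had 4265, 4418, 3703 and 4613 with Ag-B7, against 1361, 1117 and 1266 in naive cells (1.73 ± 0.16, limma adjusted p = 1.91e-07). Cct6b, its testis-enriched relative, was dim, with 191, 128, 249 and 106 with Ag-B7, against 263, 469 and 509 in naive cells, and fell (-1.10 ± 0.34, limma adjusted p = 0.0104), a call that was lost under each of 3 other array scalings (differences of -0.47, -0.43 and 0.37) and without naive replicate 3. Vbp1, a prefoldin subunit, rose by 1.11 ± 0.23 (limma adjusted p = 0.000599). Without naive replicate 2 the list had 4 higher and 1 lower.

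Of 17 tested clients of CCT, 10 rose and 3 fell, beside 26.1% of all genes called higher and 35.6% called lower. The median of the clients was 0.84. Tubg1, the gamma tubulin that nucleates microtubules, had 2948, 2291, 2729 and 2464 with Ag-B7, against 292, 183 and 137 in naive cells (3.45 ± 0.22, limma adjusted p = 3.28e-09). The activator of the anaphase-promoting complex Cdc20 (3.21 ± 0.20) and the mitotic kinase Plk1 (2.26 ± 0.18) rose with it. The tubulins split, since Tuba1a (1.39 ± 0.21), Tuba1c (1.33 ± 0.21), Tubb5 (1.11 ± 0.20) and Tubb6 (1.04 ± 0.33) rose, while Tubb2a (-1.64 ± 0.28) and Tubb4b (-1.09 ± 0.44) fell. Actb, one of the 2 actins of the list, fell (-1.92 ± 0.53, limma adjusted p = 0.00499), while Actg1 had a difference of -0.35 ± 0.18 that did not pass. The falls depended on the scaling. With spike-in scaling none was called and the differences were -0.16 for Actb, 0.11 for Tubb2a and 0.49 for Tubb4b, so Tubb2a and Tubb4b turned in sign. With median centring Actb was at -1.19 and not called (limma adjusted p = 0.0544). The call of Tubb4b was also lost with quantile normalization (-0.66) and median centring (-0.43), without naive replicate 2 (-0.61, limma adjusted p = 0.248) and without naive replicate 3 (limma adjusted p = 0.110). Tubulins and actins are close relatives, and their probe sets may not tell family members apart. The tubulins and actins other than those chosen by size were added after their values were seen. Of 3 tested tubulin cofactors 2 rose, beside 26.1% of all genes. Tbcb, which acts on alpha tubulin, rose by 2.10 ± 0.28. Its signals were 616, 804, 665 and 454 with Ag-B7, against 86.3, 126 and 119.8 in naive cells. Without naive replicate 2, 1 of the 3 was called.

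The mitochondrial lists had higher medians than the cytosolic ones. Of 8 tested genes of the mitochondrial HSP70 system, proteases and other chaperones, 6 rose and 1 fell, with a median of 1.59. Lonp1, the protease that degrades misfolded matrix proteins, had 2502, 5016, 3401 and 3144 with Ag-B7, against 466, 155 and 617 in naive cells (3.08 ± 0.32, limma adjusted p = 1.08e-06). Clpp, a second matrix protease, rose by 2.04 ± 0.26. The 1 that fell was Htra2, a protease of the intermembrane space (-2.60 ± 0.35, limma adjusted p = 1.32e-05), whose 1909, 1858, 2859.7 and 1471 with Ag-B7 stood against 7311, 26631 and 9153 in naive cells, with the top value on naive replicate 2. Its difference was -2.03 without that array, and with spike-in scaling it was -0.83 and not called (limma adjusted p = 0.0986). Of 18 tested genes of mitochondrial protein import, through which the clients of Hspd1 arrive, 14 rose and none fell, with a median of 1.20. Tomm40, the channel of the outer membrane, had 2784, 2260.1, 2585 and 3546 with Ag-B7, against 499, 436 and 419 in naive cells (2.50 ± 0.22, limma adjusted p = 1.78e-07). Timm17a, of the inner membrane translocase, rose by 2.22 ± 0.18, and Timm8a1, a small chaperone of the intermembrane space, by 2.12 ± 0.21. The share of all genes called higher was 26.1%, as above, and that called lower was 35.6%.

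Of 24 tested cytosolic HSP70 and HSP90 chaperones, 11 rose and 4 fell, with a median of 0.26, beside 26.1% of all genes called higher and 35.6% called lower. The stress-inducible HSP70 genes Hspa1a and Hspa1b fell. Hspa1a had 272, 138, 415 and 255 with Ag-B7, against 1168, 5502 and 2342 in naive cells (-3.07 ± 0.59, limma adjusted p = 0.000344), and Hspa1b had 141, 212, 490.2 and 366 with Ag-B7, against 1655, 4717 and 2133 in naive cells (-3.02 ± 0.49, limma adjusted p = 8.08e-05). Both were highest on naive replicate 2, and without it the differences were -2.50 and -2.58. With spike-in scaling they were -1.36 and -1.31, still called, while the list as a whole had 19 higher and 2 lower. The 2 genes are near-identical copies, so their probe sets may not tell them apart. Hspa14, an HSP70 that works at the ribosome, had 2579, 3767, 3109 and 3785 with Ag-B7, against 635, 276 and 612 in naive cells, and rose (2.66 ± 0.24, limma adjusted p = 2.22e-07). The heat shock element of the Hspd1 and Hspe1 promoters was found in 2 of the 24 genes of this list with a promoter window, Hsph1 and Dnajb6, and neither of these co-chaperones passed the test (0.15 ± 0.26 and -0.14 ± 0.23). Among the other lists it was found in 1 of the 19 mitochondrial import genes with a window, and in 0 genes of the rest. That gene was Timm9, an intermembrane space chaperone, which rose (1.95 ± 0.35, limma adjusted p = 0.000199). The heat shock transcription factors could not be read, as 0 of the 2 listed were tested. Over naive cells, the counts with IL-12 and with IFNa/b were near those with Ag-B7 alone. With IL-12, 4 genes rose and 1 fell among the further subunits and prefoldin, 9 and 2 among the clients, 1 and 0 among the tubulin cofactors, 7 and 1 in the mitochondrial HSP70 list, 13 and 0 in mitochondrial import, and 10 and 4 among the cytosolic HSP70 and HSP90 chaperones. With IFNa/b the counts were the same but for 9 higher in the last list. In the comparisons of the added cytokines, 0 genes of any of these lists were called. Of all genes, 0.621% were called with IL-12 over Ag-B7 alone, 0.43% with IFNa/b over it and 0.94% with IL-12 over IFNa/b. Beside such shares, 0 calls in lists of this size say little. Without naive replicate 2, the counts of the cytosolic HSP70 and HSP90 list over naive were 8 higher and 5 lower.

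**Figure D4:**
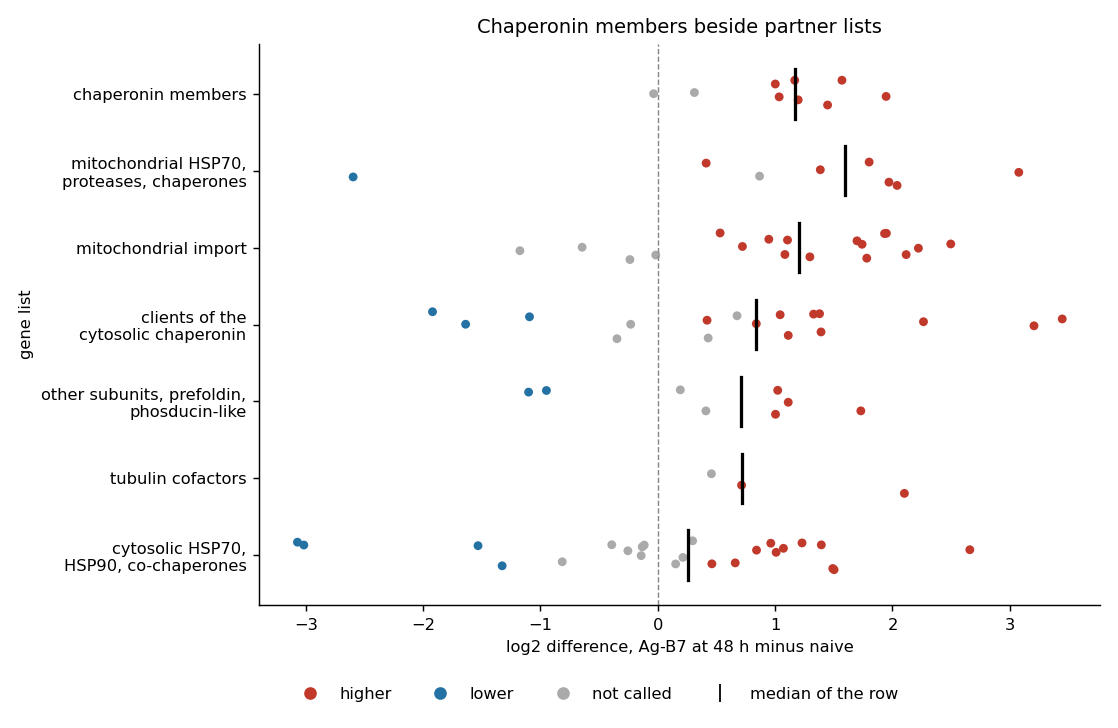
Log2 difference between Ag-B7 at 48 h and naive cells for the chaperonin members and the 6 partner lists with tested genes. Each point is 1 gene, coloured by the call at an adjusted p below 0.05, and the bar is the median of the row. The median is 1.17 for the chaperonin members and 0.26 for the cytosolic HSP70 and HSP90 list, whose lowest points are Hspa1a and Hspa1b.

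Across the 20 arrays, the profiles of single members were set against the mean standardised profile of their compartment, of which they are a part. The correlation with the cytosolic mean was 0.961 for Cct5, 0.947 for Cct4, 0.942 for Cct8, 0.910 for Cct7 and 0.906 for Cct3, against 0.635 for Tcp1 and -0.01 for Cct2. Of the mitochondrial genes, which are not in that mean, Hspe1 had 0.933 and Hspd1 0.838. With the mean of Hspd1 and Hspe1, Cct3 had 0.960, Cct7 0.954 and Cct8 0.952, each above its value with the cytosolic mean. Cct4 and Cct5 had 0.916 with it, Tcp1 0.366 and Cct2 -0.19, each below. The genes outside the chaperonins most like the cytosolic mean were Fam98a (0.969), Dus1l (0.969), Psmd12 (0.968), Mrps18a (0.965) and Ruvbl1 (0.964). Psmd12 is a subunit of the proteasome's regulatory particle, Mrps18a a mitochondrial ribosomal protein and Ruvbl1 an ATPase of chromatin remodelling complexes. Those most like the mean of Hspd1 and Hspe1 were Uchl5 (0.987), a deubiquitinase of the proteasome, Dcun1d5 (0.985), Prmt1 (0.983), an arginine methyltransferase, Mrps15 (0.979), a mitochondrial ribosomal protein, and Ndufab1 (0.970), an acyl carrier protein of the mitochondrion. Their differences with 48 h of Ag-B7 over naive cells ran from 1.31 ± 0.21 for Mrps15 to 3.20 ± 0.46 for Fam98a, and are a description only, since the genes were picked for a likeness over the same arrays that fixes this direction. The points share arrays and scaling, and the values are a description over n = 20 arrays.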

How the data were processed

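Total RNA of 20 samples was hybridised to 1 array each. Per the submitters' processing notes the deposited values are MAS5 intensities on a linear scale. Their 2% trimmed mean was 1000.46 to 1000.74 on all arrays, while no label states the version of MAS5 or the scaling target. Of 12488 probe sets, 10833 had 1 gene symbol. A gene was its probe set with the highest mean, values were taken as log2(signal + 46.4), and genes above the 40th percentile of their own array on at least 3 of 13 arrays were kept (6279 of 8251). Differences were tested with limma 3.58.1 in R 4.3.3 (lmFit and eBayes with an intensity trend, two-sided, 6 comparisons, Benjamini-Hochberg over the 6279 genes), without a replicate block. The 7 groups with 1 array entered no test. The scripts were tested on simulated data. The number of arrays limits the precision, and p-values measure only the spread between these samples, which may be technical.

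The members and gene lists were chosen with earlier results of these data known. The genes named are all members, up to 3 called genes per list with the largest difference and no overlap between groups, and the 5 genes most correlated with each compartment's mean. Between IL-12 and Ag-B7 alone, all 3 pairs of same-numbered replicates had correlated deviations (0.276 to 0.28). In no other comparison were all 3 over 0.1, although single pairs reached up to 0.274. With IFNa/b over Ag-B7 alone, same-numbered pairs had 0.112, -0.042 and -0.097. There the highest correlations with a replicate of another number were 0.283, 0.278 and 0.454, which the replicate block does not take in. Alternatives were 3 array scalings, 2 pseudocounts, no filter, other probe sets, no trend, only the groups compared, the replicate block, and leaving out each replicate. Promoter windows were RefSeq's, of GRCm38.p6.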

Additional observations from a re-analysis of the deposited data

Results flagged for a closer look

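Among the 4 arrays of Ag-B7 at 48 h, Cct4 had its lowest signal, 15266, on replicate 3, set apart from 19087, 19269 and 18527 on the others. On the log2 scale the gap to the nearest array was 0.831 of the whole range, just past the 95% critical value of Dixon's test for 4 arrays. On the signals themselves it was 0.815, which does not pass. Chance alone flags about 1 in 20 groups. Without that replicate the log2 difference of Cct4 over naive cells was 1.52 (limma adjusted p = 2.36e-05, n = 3 each).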

How the results depend on the processing

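Over naive cells, 6 to 9 members were called in every alternative run, and between the added cytokines 0 were. Of the tested member differences, 829 kept their direction and side of the threshold, 71 changed sign, and among those that kept their sign 6 gained a call and 9 lost one, all 9 being Tcp1 with IFNa/b over naive. Of the 71, 6 also lost a call (Hspd1 with the mean of all probe sets and Cct3 by 161238_f_at, over naive in each of 3 treatments), 4 gained one (Cct2), 3 were called in the opposite direction (Hspd1 by 161140_r_at), and 58 were called in neither. The cause was not tested in any case. Array scaling mattered most for Cct2 and Tcp1. Cct2 with Ag-B7 alone over naive was 0.028 with quantile normalization, 0.67 with median centring, 1.65 with spike-in scaling and 0.017 with the replicate block. With IFNa/b over naive it was 0.015, 0.62 and 1.72 under the 3 scalings in the same order. The last 2 scalings gave Cct2 a call in both of these comparisons. Other calls gained by median centring and spike-in scaling were those of Tcp1 over naive, 1.01 and 1.95 with Ag-B7 alone and 0.87 and 1.66 with IL-12, and of Cct2 with IL-12 over naive, 0.77 and 1.60. Tcp1 with IFNa/b over naive lost its call with no filter, with the mean of all probe sets, with no intensity trend, with only the groups compared and with the replicate block (limma adjusted p of 0.0508 to 0.0982), and without naive replicate 2 or 3 or IFNa/b replicate 2 or 3. The block changed no other call.

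Over naive, the mean of all probe sets gave Hspd1 -0.32 with IL-12, -0.48 with IFNa/b and -0.18 with Ag-B7 alone. Its probe set 161140_r_at gave -1.74 with IL-12, -1.84 with IFNa/b and -1.36 with Ag-B7 alone, and the Cct3 probe set 161238_f_at gave -0.41, -0.44 and -0.52 in that order. Between the added cytokines no sign change concerned a called difference. With IL-12 over Ag-B7 alone, spike-in scaling gave -0.053 for Cct2, -0.12 for Cct5, -0.18 for Cct7, -0.098 for Hspd1 and -0.089 for Hspe1. There Cct7 was -0.0024 with quantile normalization and -0.025 with median centring, Cct3 0.082 with the block and 0.11 by 161238_f_at, Cct5 -0.050 by 161514_at, and Hspd1 -0.14 by the mean of all probe sets and -0.38 by 161140_r_at. With IFNa/b over Ag-B7 alone, spike-in scaling gave 0.068 for Cct2, 0.066 for Cct4 and 0.034 for Cct8, while Cct4 was 0.018 with quantile normalization, Cct8 0.0047 with the block, and Cct5 -0.035 by the mean of all probe sets and -0.15 by 161514_at. With IL-12 over IFNa/b, Cct5 was -0.098 with quantile normalization, -0.013 with median centring and -0.29 with spike-in scaling, which also gave -0.12 for Cct2 and -0.056 for Hspd1, and Cct3 was 0.027 by 161238_f_at.

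Leaving out 1 replicate at a time gave Cct2 over naive a range of -0.0093 to 0.26 with IL-12, -0.19 to 0.17 with IFNa/b and -0.17 to 0.12 with Ag-B7 alone, and Tcp1 with IFNa/b over naive one of 0.40 to 0.74. With IL-12 over Ag-B7 alone the ranges that crossed 0 were -0.20 to 0.053 for Tcp1, -0.091 to 0.082 for Cct3 and -0.076 to 0.12 for Cct7. With IFNa/b over Ag-B7 alone they were -0.16 to 0.20 for Cct2, -0.12 to 0.058 for Cct4, -0.057 to 0.20 for Cct7 and -0.11 to 0.019 for Cct8. With IL-12 over IFNa/b they were -0.062 to 0.30 for Cct2, -0.072 to 0.069 for Cct5, -0.18 to 0.076 for Cct7 and -0.23 to 0.026 for Cct8.

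Counts of members at least 2-fold apart on single arrays followed the scaling and were tried after seeing the data. At 72 h over naive, the 3 scalings (quantile, median, spike-in) gave 1, 4 and 9 with IL-12 (2 as deposited), 1, 7 and 9 with IFNa/b (2), and 0, 6 and 9 with TSA (3), while Ag-B7 alone (0) had 2 with median centring and 9 with spike-in scaling. At 72 h over 48 h, IL-12 (1) had 4 with median centring, and IFNa/b (1) had 0 with quantile normalization and 0 with spike-in scaling. At 72 h over Ag-B7 alone, IFNa/b (0) had 4 with spike-in scaling, and TSA (0) had 1 with median centring and 2 with spike-in scaling. Of the list counts, also tried after seeing the data, those of the tubulin cofactors moved. With IL-12 and with IFNa/b over naive (1 each) they were 2 with quantile normalization, 3 with median centring, 3 with spike-in scaling and 2 without naive replicate 1, and with Ag-B7 alone (2) 1 without naive replicate 2. The other 99 list totals (higher and lower calls together) stayed within 1.5 times, but in 35 of these the higher or the lower part alone did not. Among these, the cytosolic HSP70 and HSP90 list with spike-in scaling had 18 higher and 1 lower with IL-12 (10 and 4 as deposited), 19 and 0 with IFNa/b (9 and 4) and 19 and 2 with Ag-B7 alone (11 and 4), and with median centring 16 and 2 with IL-12 and 15 and 4 with IFNa/b. With spike-in scaling the clients had 14 higher and 0 lower over naive in each treatment, and the further subunits and prefoldin 6 and 0. Arrays give no depth, and dim probe sets such as that of Cct6b are the least precise.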
